A study of Mus musculus with 9 samples.

Results

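Skeletal muscle sarcomere and myogenic genes were followed in RNA-seq libraries of mouse calvarial osteoblast cultures that overexpressed HIF-1α or HIF-2α. The set held 43 genes, taken as the rows of the deposited count files whose symbol was on a fixed list, and all 43 were found among the 40213 symbols of the files. The list was proposed with the contrasts of each vector with control in view, so the members were selected on these data and their differences from control are given as a description, without p-values. In control cells Myh1, Myh8 and Myom1 were well counted, while the myogenic regulators and transcripts of several of the most abundant proteins of skeletal muscle were at or near 0 counts. The cells that held these transcripts were not identified, and the set is named here only by its genes.

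Primary calvarial pre-osteoblasts came from 3-day-old pups of wild-type mice (ICR in the study's cell source statement), whose skull bones were digested enzymatically, so the cells were an unsorted bulk culture. All 9 cultures were kept in osteogenic medium with L-AA (50 μg/ml) and β-Gp (5 mM) under normoxia, received an adenovirus on day 3 and were harvested on day 6. Control cells received control adenovirus (Ad-C, 3 libraries, genotype WT), and the others received Ad-Hif1a (3 libraries, Hif1a overexpression) or Ad-Hif2a (3 libraries, Hif2a overexpression). The sources used here do not give the promoter of the vectors. The study states in general terms that its replicates were independent experiments or animals, and the labels tie no library to a litter or culture. Total RNA was sequenced to between 14372589 and 18623403 counts per library.

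The transferred genes followed the labels. Hif1a stood at 190 ± 3.45 CPM (library-size scaled counts, TMM, SD, n = 3) in Ad-C and 1830 ± 548 in Ad-Hif1a, and Epas1, the gene of HIF-2α, at 45.9 ± 3.58 in Ad-C and 1665 ± 736 in Ad-Hif2a. Each was also above control in the cells given the other vector, with Epas1 at 524 ± 140 CPM in Ad-Hif1a and Hif1a at 535 ± 76.4 in Ad-Hif2a. Ad-Hif2a replicate 3 stood apart from replicates 1 and 2, at log2 CPM correlations of 0.948 and 0.933 against 0.980 between those. Ad-Hif1a replicate 1 did so less clearly, since replicate 2 correlated alike with replicates 1 and 3 (0.983 and 0.986). Mitochondrial transcripts took 2.95% of counts in Ad-Hif1a replicate 1 and 2.82% in Ad-Hif2a replicate 3. They took 3.69 to 5.77% in the other vector libraries and 5.92 to 6.37% in Ad-C. These 2 libraries are the ones said below to stand apart. Sums and levels that moved most with them are also given without them, which leaves 2 libraries of each vector.

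Skeletal muscle contracts through sarcomeres, in which thick filaments of myosin pull on thin filaments of actin under the control of troponin and calcium. The myosin heavy chains are encoded by separate genes for embryonic, perinatal, fast and slow fibres, and most of them lie side by side in a single cluster whose genes are used at different stages and in different fibres. Commitment to the lineage is set by Pax7 in satellite cells and by the myogenic factors Myf5, Myod1, Myog and Myf6, which bind E-boxes and work with MEF2 proteins. Osteoblasts are not known for sarcomeres.

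The set took 115 ± 7.84 CPM in Ad-C, 37.8 ± 6.23 in Ad-Hif1a and 36.6 ± 14.3 in Ad-Hif2a as a sum. Its members lay far apart in level and did not move as a group. Myh1 made up about as much of the Ad-C sum as all other members, which came to 57.5 CPM without it. Without Myh1, Myh2, Myh4 and Myh8 the other 39 members summed to 42.9 ± 0.772 CPM in Ad-C, 35.3 ± 6.25 in Ad-Hif1a and 35.0 ± 14.6 in Ad-Hif2a. The Ad-Hif1a libraries ranged from 29.9 to 42.1 CPM and the Ad-Hif2a libraries from 25.7 to 51.8, beside 42.4 to 43.8 in Ad-C. The highest value of each vector came from the library that stood apart, and without these the means of the 39 were 31.8 CPM in Ad-Hif1a and 26.6 in Ad-Hif2a, or 74.3% and 62.0% of control. Most of the difference in the sum was thus carried by those 4 heavy chains.

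Only 15 of the 43 members had enough counts for the edgeR filter on the 3 groups, and 28 did not. Of all 43, 4 had no count in any library, 20 had at most 10 counts in every library and 34 had a mean under 1 CPM in Ad-C. The filter keeps a gene that is expressed in a single group, so a member that was low elsewhere could only pass by being different, and the counts below describe the 15 without standing for the set. Below, values in each library are given for the 5 members with a mean of 5 CPM or more in Ad-C and for the regulators by rule, and for other members as chosen after their values were seen. Among these 15, 5 were lower and 3 higher in Ad-Hif1a than in Ad-C at an adjusted p under 0.05, where 5.22% and 6.04% of the 14413 genes tested were called lower and higher. In Ad-Hif2a 8 were lower and 3 higher, where 7.72% and 7.87% of all genes were called. The median log2 fold change of the 15 was -0.75 with Ad-Hif1a and -0.87 with Ad-Hif2a, and that of all genes tested was 0.01 in both. The Ad-C libraries are shared by both comparisons. Leaving out any 1 of the 9 libraries kept Myh8, Myh1, Myh2, Myom1 and Acta1 called in both comparisons, but the number of members called moved between 5 and 11 with Ad-Hif1a and between 5 and 12 with Ad-Hif2a. Without Ad-C replicate 1 or 3 it was 5 in both, without Ad-Hif1a replicate 1 or 2 or Ad-Hif2a replicate 1 or 2 it was 5 with Ad-Hif1a, and without Ad-Hif2a replicate 1 it was 7 with Ad-Hif2a. Des, Tnnt2 and Tnnc1 lost their call in at least 1 of these fits in both comparisons, as did Ldb3, Mybpc1 and Trim63 with Ad-Hif2a. Over all genes tested, the number called in these fits moved between 441 and 5330 with Ad-Hif1a and between 688 and 3309 with Ad-Hif2a.

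**Figure D1:**
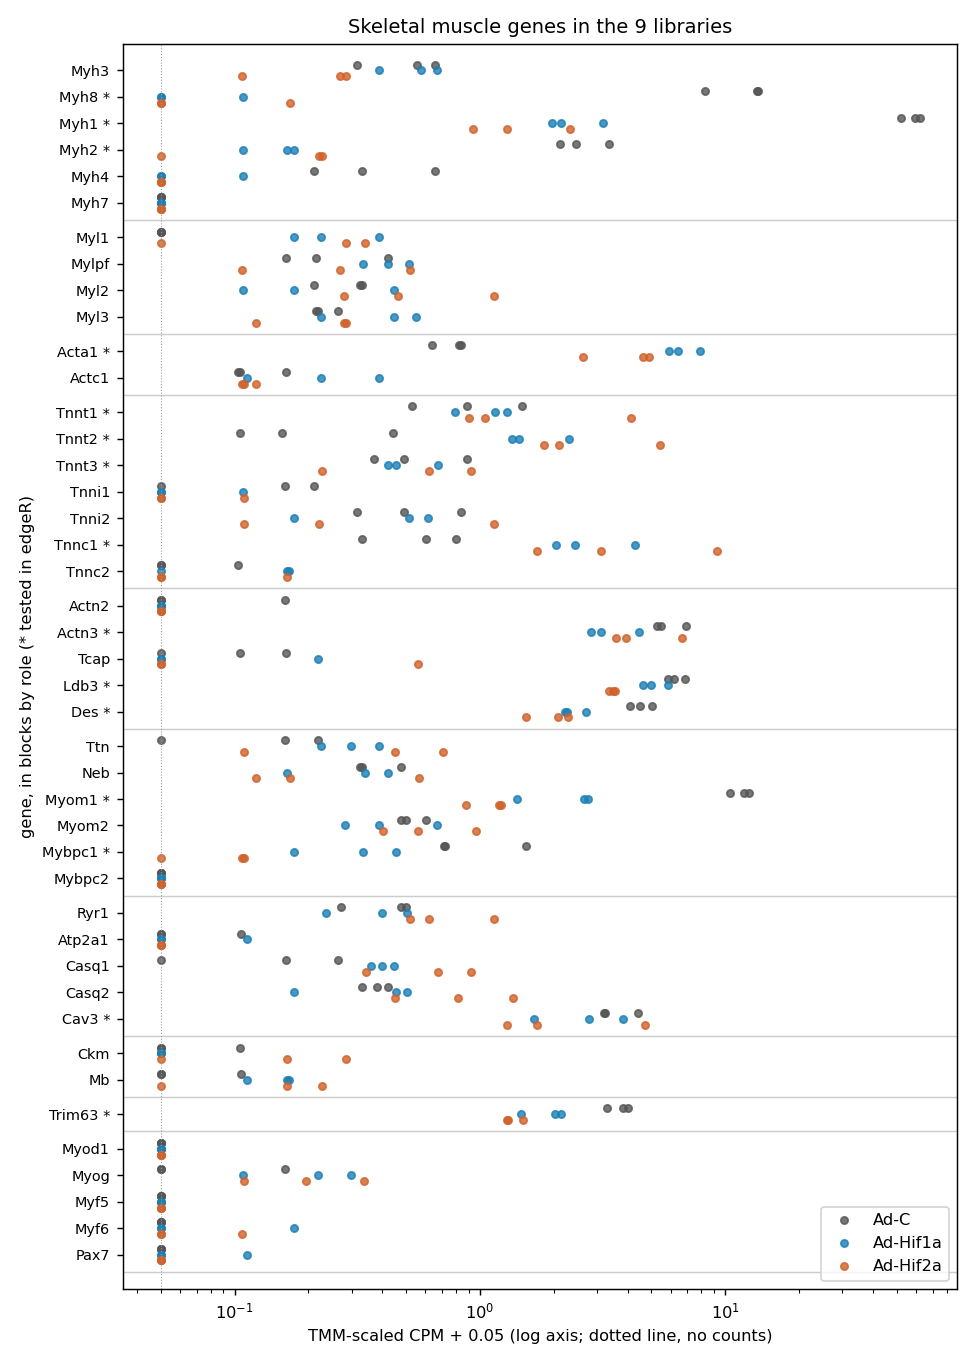
TMM-scaled CPM plus 0.05 (log axis) of the 43 genes, with 1 point per library coloured by virus and the genes in blocks by role; an asterisk marks the 15 genes tested in edgeR. Myh1, Myh8 and Myom1 are the only members above 10 CPM in a library, all in Ad-C, and Myod1, Myf5, Myh7 and Mybpc2 sit on the line of no counts in all 9.

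The myosin heavy chains, the motor subunits of the thick filament, showed the largest differences of the set. Myh1, the heavy chain of fast IIx fibres, had 1122, 1057 and 972 counts in the Ad-C libraries, or 61.9, 59.2 and 51.9 CPM. It had 37, 54 and 31 counts in Ad-Hif1a (2.09, 3.14 and 1.92 CPM) and 15, 40 and 17 in Ad-Hif2a (0.884, 2.28 and 1.24 CPM). Every vector library was far under every control library, with a log2 fold change of -4.63 (SE 0.28) in Ad-Hif1a and -5.35 (SE 0.29) in Ad-Hif2a. The pooled counts stood at a ratio of control to vector of 24.1 (95% exact interval 20.1 to 29.1) and 38.6 (30.5 to 49.4), where the intervals cover counting error only.

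Myh8, the perinatal heavy chain, went from a well counted gene to almost none. It had 243, 241 and 154 counts in Ad-C, or 13.4, 13.5 and 8.23 CPM. The Ad-Hif1a libraries held 0, 1 and 0 counts and the Ad-Hif2a libraries 2, 0 and 0. Pooled, 638 control counts faced a single count in Ad-Hif1a, a ratio of 595 (95% exact interval 106 to 23526), and 2 counts in Ad-Hif2a, a ratio of 281 (77.5 to 2327). Neither vector overlapped control, and the width of these intervals shows how little of the size of the drop could be measured at this depth.

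The other fast heavy chains lay lower and went the same way. Myh2, of IIa fibres, had 60, 37 and 45 counts in Ad-C, 2, 1 and 2 in Ad-Hif1a and 3, 3 and 0 in Ad-Hif2a. Its log2 fold changes were -4.63 (SE 0.61) and -4.34 (SE 0.59). Myh4, of IIb fibres, had 11, 5 and 3 counts in Ad-C, a single count in Ad-Hif1a and none in Ad-Hif2a, which is at least 5.58-fold lower with the floor set at 3 counts over the group. Myh3, the embryonic chain, had 11, 9 and 5 counts in Ad-C, 6, 9 and 10 in Ad-Hif1a and 4, 1 and 3 in Ad-Hif2a. It overlapped control with Ad-Hif1a and lay under it with Ad-Hif2a, at a pooled ratio of 2.76 (1.20 to 7.07). This interval covers counting error only, and Myh3 had too few counts to be tested in edgeR. Myh7, the slow chain of type I fibres and heart, had no count in any library.

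Myh3, Myh2, Myh1, Myh4, Myh8 and Myh13 follow each other on chromosome 11, in the gene order of the RefSeq annotation of GRCm38, and the drop sat inside this row. At its start, Tmem220, Adprm and Sco1 were level, at 3.33 ± 0.317, 10.9 ± 1.58 and 9.83 ± 1.49 CPM in Ad-C, 3.27 ± 0.306, 11.2 ± 0.886 and 9.96 ± 0.837 in Ad-Hif1a, and 3.25 ± 0.422, 12.1 ± 1.20 and 10.6 ± 0.483 in Ad-Hif2a. At its end Myh13, the chain of eye and larynx muscle, had 18, 15 and 12 counts in Ad-C, 18, 14 and 17 in Ad-Hif1a and 18, 29 and 29 in Ad-Hif2a. Neither difference was called in edgeR, with a log2 fold of 0.21 (SE 0.40) in Ad-Hif1a cells and of 0.93 (SE 0.39) in Ad-Hif2a cells. The lncRNA 2310065F04Rik, which lies between Myh3 and Myh2, had 7, 7 and 1 counts in Ad-C, none in Ad-Hif1a and a single count in Ad-Hif2a. Myhas, a lncRNA that overlaps Myh1, had at most 2 counts in any library.

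**Figure D2:**
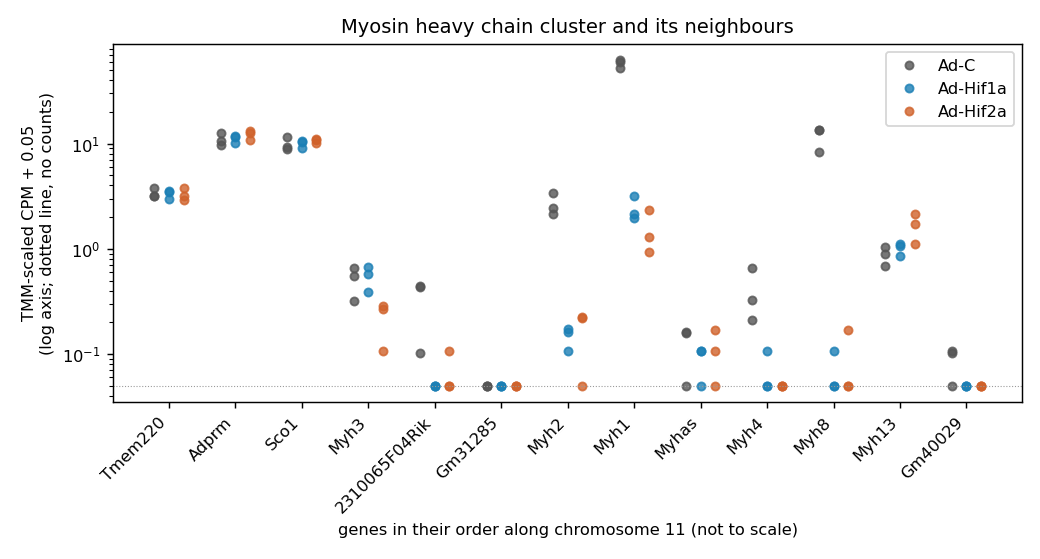
TMM-scaled CPM plus 0.05 (log axis) of the genes from Tmem220 to Gm40029 in their order along chromosome 11, with 1 point per library coloured by virus. Myh2, Myh1, Myh4 and Myh8 are lower in all 6 vector libraries than in the 3 Ad-C libraries, while Tmem220, Adprm, Sco1 and, with Ad-Hif1a, Myh3 and Myh13 overlap between groups.

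The 4 genes that were lower together are close copies of each other, so the bases before their start sites are shown to let the copies be compared. The RefSeq table held a promoter for 35 of the 43 members on build GRCm38.p6, which is earlier than the GRCm39 of the files. For 20 of these 35 the first bases after the start lay in the GENCODE transcript used here. Positions and motifs below therefore depend on the annotated start. Each line gives the 250 bases before the start, 5′ to 3′ on the strand of the gene. The long capital runs are 14 bases that all 4 windows share, and the shorter ones, absent from Myh2, are a 10-base match to the MEF2 motif. The windows are chr11:67170777-67171026 for Myh2, chr11:67199852-67200101 for Myh1, chr11:67237562-67237811 for Myh4 and chr11:67276874-67277123 for Myh8, all on the plus strand.
Myh2: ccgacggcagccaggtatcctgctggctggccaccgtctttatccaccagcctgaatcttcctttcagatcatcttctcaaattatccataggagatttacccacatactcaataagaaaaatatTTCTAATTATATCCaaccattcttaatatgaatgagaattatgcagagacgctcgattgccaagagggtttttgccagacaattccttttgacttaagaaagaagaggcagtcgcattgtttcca
Myh1: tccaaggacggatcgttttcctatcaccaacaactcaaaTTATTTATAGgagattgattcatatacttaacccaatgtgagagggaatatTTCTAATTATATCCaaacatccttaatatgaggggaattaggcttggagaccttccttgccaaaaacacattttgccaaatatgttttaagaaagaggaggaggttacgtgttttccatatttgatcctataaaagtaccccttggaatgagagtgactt
Myh4: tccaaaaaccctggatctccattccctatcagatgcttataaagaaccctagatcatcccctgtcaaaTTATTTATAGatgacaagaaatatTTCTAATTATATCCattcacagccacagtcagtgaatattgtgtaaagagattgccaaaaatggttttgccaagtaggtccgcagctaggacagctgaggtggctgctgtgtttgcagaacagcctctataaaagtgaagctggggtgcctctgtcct
Myh8: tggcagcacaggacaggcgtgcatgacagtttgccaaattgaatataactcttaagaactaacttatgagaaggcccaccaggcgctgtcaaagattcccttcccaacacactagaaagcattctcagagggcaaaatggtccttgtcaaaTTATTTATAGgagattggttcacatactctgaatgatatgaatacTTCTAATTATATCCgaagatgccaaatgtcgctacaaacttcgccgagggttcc

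The run TTCTAATTATATCC, picked after the sequences were compared, began 125, 160, 158 and 54 bases before the start of Myh2, Myh1, Myh4 and Myh8. On either strand it was in the windows of these 4 genes and of no other of the 27025 genes with an entry (0.0148%), and the windows of Myh3, Myh13, Myh6 and Myh7 lacked it. The MEF2 match TTATTTATAG had the same letters in 3 of them and began 211 bases before the start in Myh1, 182 in Myh4 and 99 in Myh8. MEF2 matches were present in 5 of the 35 members (14.3%) and in 3.42% of all genes. Since 3 of these 5 are the close copies Myh1, Myh4 and Myh8, the members are not independent in this count. A CArG box, the motif of serum response factor, was in 6 members (17.1%) against 1.62% of all genes. E-boxes (CANNTG) were in 28 members (80.0%) and 69.3% of all genes, and the HIF core ACGTG or GCGTG, read on both strands, in 11 (31.4%) and 41.5%. An E-box with the letters CACGTG would also count as a HIF core. Of the 4 heavy chains, Myh1 had a HIF core 54 bases and Myh8 a HIF core 234 bases before the start, and Myh2 and Myh4 had none in this window. These letters are a description of the windows, and whether any factor binds there was not tested.

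Since the heavy chains are so alike, reads can be split between them by the counting. Of all 50-base stretches of the Myh1 transcript (GENCODE vM21), 27.4% also occur in another heavy chain, and of all 100-base stretches 9.97%. For Myh8 these were 21.4% and 6.61%. Levels within the family are therefore uncertain at that scale, while the sum over the family is not changed by a split among its members. On counts per kb of coding length, Myh1 made up 79.4% ± 2.63 of the heavy chain signal in Ad-C, 78.7% ± 5.74 in Ad-Hif1a and 62.5, 90.9 and 85.0% in the Ad-Hif2a libraries. The share of Myh8 was 15.9% ± 2.53 in Ad-C, 0.506% ± 0.877 in Ad-Hif1a and 2.78% ± 4.82 in Ad-Hif2a. Myh3 went from 0.618% ± 0.174 to 16.8% ± 5.65 and 11.3% ± 7.88. The share of Myh2 was 3.57% ± 0.734 in Ad-C, 3.54% ± 1.75 in Ad-Hif1a and 6.44% ± 6.26 in Ad-Hif2a. Of the 50-base stretches of Myh1, 20.1% also occur in Myh2, and whether the few Myh2 counts were its own was not tested. The shares rest on 1179 to 1447 heavy chain counts per library in Ad-C, but on 43 to 66 in Ad-Hif1a and 20 to 44 in Ad-Hif2a.

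The light chains, which sit on the neck of myosin, were near the detection limit. Myl1, the fast essential chain, had no count in Ad-C, 6, 3 and 2 in Ad-Hif1a and 4, 0 and 4 in Ad-Hif2a, or at least 3.93-fold and 3.02-fold higher against a floor of 3 counts over the group. Mylpf, Myl2 and Myl3, the fast regulatory and the slow and cardiac chains, ranged from 1 to 15 counts per library and overlapped between control and vector. Mylpf lies over Septin1, so its few counts may not be its own.

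Skeletal actin and part of the troponins went the other way. Acta1, the actin of the thin filament in adult skeletal muscle, had 14, 14 and 11 counts in Ad-C (0.772, 0.784 and 0.588 CPM). It had 139, 110 and 94 counts in Ad-Hif1a (7.87, 6.39 and 5.84 CPM) and 44, 85 and 63 in Ad-Hif2a (2.59, 4.85 and 4.58 CPM). All vector libraries were above all control libraries, with a log2 fold change of 3.22 (SE 0.34) and 2.47 (SE 0.34). Actc1, the cardiac actin that fetal muscle also uses, had at most 6 counts in any library.

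The window of Acta1 is shown because this gene was higher where the clustered heavy chains were lower. It lies on the minus strand at chr8:123894776-123895025 (GRCm38.p6, RefSeq), with capitals on its E-boxes, which begin 238 and 221 bases before the start, and on its CArG box, which begins 73 bases before it.
Acta1: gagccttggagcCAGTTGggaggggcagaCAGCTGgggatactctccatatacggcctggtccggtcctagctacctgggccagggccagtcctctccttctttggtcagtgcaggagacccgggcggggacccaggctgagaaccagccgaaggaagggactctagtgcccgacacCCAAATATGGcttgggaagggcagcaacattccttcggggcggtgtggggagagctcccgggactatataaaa

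Troponin is the calcium switch of the thin filament, made of a tropomyosin-binding, an inhibitory and a calcium-binding subunit. Tnnt2, the tropomyosin-binding subunit of heart and fetal skeletal muscle, had 1, 7 and 2 counts in Ad-C, 40, 24 and 21 in Ad-Hif1a and 30, 36 and 74 in Ad-Hif2a. Tnnc1, the calcium-binding subunit of slow and cardiac muscle, had 10, 5 and 14 counts in Ad-C, 75, 41 and 32 in Ad-Hif1a and 52, 29 and 127 in Ad-Hif2a. Both were higher in every vector library than in any control.

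The log2 fold change of Tnnt2 was 3.17 (SE 0.77) with Ad-Hif1a and 3.93 (SE 0.76) with Ad-Hif2a, and that of Tnnc1 was 2.59 (SE 0.61) and 2.98 (SE 0.60). The highest value of each vector came from the library that stood apart, Ad-Hif1a replicate 1 and Ad-Hif2a replicate 3. Without both libraries the folds were 2.76 and 3.35 for Tnnt2, 2.25 and 2.14 for Tnnc1 and 2.97 and 2.33 for Acta1. These remain rises in counts that start from a few reads per control library.

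The other troponins did not part the groups. Tnnt1, the slow tropomyosin-binding subunit, had 26, 15 and 9 counts in Ad-C, 22, 19 and 12 in Ad-Hif1a and 17, 15 and 56 in Ad-Hif2a, where the high value was again replicate 3. Tnnt3, its fast counterpart, ranged from 3 to 15 counts with log2 fold changes of -0.12 (SE 0.66) and -0.01 (SE 0.64). The inhibitory subunits Tnni2 (fast, 1 to 15 counts) and Tnni1 (slow, 0 to 3) and the fast calcium-binding Tnnc2 (0 to 2) were too low to be tested. Thus Tnnc1 was counted in every library while its fast counterpart Tnnc2 had no count in 5 of the 9.

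Among the Z-disc and intermediate filament genes, 3 of 5 were tested. Actn3, the fast-fibre alpha-actinin that ties thin filaments to the Z-disc, had 98, 93 and 129 counts in Ad-C (5.41, 5.21 and 6.89 CPM), 78, 53 and 45 in Ad-Hif1a (4.41, 3.08 and 2.79 CPM) and 66, 62 and 91 in Ad-Hif2a (3.89, 3.54 and 6.62 CPM). Ad-Hif1a lay under control and Ad-Hif2a overlapped it, with log2 fold changes of -0.75 (SE 0.29) and -0.34 (SE 0.29) that were not called. Without the 2 libraries that stood apart, the Actn3 difference in Ad-Hif1a was called as lower, in a fit that called 4022 of 14559 genes. Ldb3, a PDZ and LIM protein of the Z-disc, had 105, 109 and 128 counts in Ad-C (5.79, 6.11 and 6.84 CPM), 81, 85 and 93 in Ad-Hif1a (4.58, 4.94 and 5.77 CPM) and 56, 60 and 48 in Ad-Hif2a (3.30, 3.43 and 3.49 CPM).

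Ldb3 values stepped down from control to Ad-Hif1a to Ad-Hif2a without overlap. The log2 fold change was -0.29 (SE 0.18) in Ad-Hif1a, which was not called, and -0.87 (SE 0.19) in Ad-Hif2a, which was. Des, the muscle intermediate filament that smooth muscle also makes, had 90, 79 and 76 counts in Ad-C, 47, 38 and 35 in Ad-Hif1a and 38, 26 and 28 in Ad-Hif2a. It was lower with both vectors, by -0.93 (SE 0.23) and -1.23 (SE 0.23) on the log2 scale. Actn2, the alpha-actinin of all striated muscle, had 2 counts in all, both in a single Ad-C library, and Tcap, which caps titin at the Z-disc, had at most 7 in any.

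Myom1, which crosslinks thick filaments in the M-band, held the most counts in Ad-C after Myh1 and Myh8. It had 188, 223 and 222 counts in Ad-C (10.4, 12.5 and 11.9 CPM), 48, 45 and 22 in Ad-Hif1a (2.72, 2.61 and 1.37 CPM) and 14, 20 and 16 in Ad-Hif2a (0.825, 1.14 and 1.16 CPM). No library of either vector reached a control library. The log2 fold change was -2.38 (SE 0.29) with Ad-Hif1a and -3.47 (SE 0.31) with Ad-Hif2a, and the pooled ratio of control to vector was 5.13 (4.20 to 6.31) and 11.2 (8.36 to 15.2). Its window held a CArG box that began 99 bases before the start.

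Mybpc1, the slow myosin-binding protein C, followed at lower counts. It had 12, 12 and 28 counts in Ad-C, 5, 7 and 2 in Ad-Hif1a and 1, 1 and 0 in Ad-Hif2a. Its log2 fold change was -1.72 (SE 0.65) with Ad-Hif1a, not called, and -4.26 (SE 0.88) with Ad-Hif2a, called. The rest of this group did not part control from both vectors. Myom2, the fast-fibre partner of Myom1, had 8 to 10 counts in Ad-C and 4 to 16 in the vector libraries. Titin (Ttn, 0 to 9 counts) and nebulin (Neb, 1 to 9), whose transcripts are among the longest known, were nearly absent, and Mybpc2 had no count at all.

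Of the calcium handling and membrane genes, only Cav3, the muscle caveolin, was tested. It had 79, 57 and 59 counts in Ad-C, 67, 47 and 26 in Ad-Hif1a and 21, 29 and 64 in Ad-Hif2a, and the groups overlapped. In Ad-Hif2a its highest value was that of replicate 3, and without the 2 libraries that stood apart Cav3 was called as lower in Ad-Hif2a. That fit called 4173 of 14559 genes with Ad-Hif2a. Ryr1, the calcium release channel, and the calsequestrins Casq1 and Casq2, which store calcium, had 0 to 18 counts. Casq1 was higher in every vector library than in any control, at pooled counts of 6 in Ad-C, 18 in Ad-Hif1a and 28 in Ad-Hif2a. Atp2a1, the calcium pump of fast fibres, had at most 1 count per library. Creatine kinase (Ckm, 0 to 4 counts) and myoglobin (Mb, 0 to 3), which serve energy and oxygen supply in muscle fibres, were at the same low level. Atp2a1 overlaps Rabep2 and Mb overlaps Apol6.

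Trim63, the MuRF1 ubiquitin ligase that marks sarcomere proteins for breakdown, had 72, 58 and 71 counts in Ad-C, 37, 34 and 23 in Ad-Hif1a and 21, 22 and 20 in Ad-Hif2a. Neither vector overlapped control, and the vectors overlapped each other. Its log2 fold change was -1.0 (SE 0.26) with Ad-Hif1a, which fell just short of a call, and -1.48 (SE 0.27) with Ad-Hif2a, which was called. Without the replicate block Trim63 was called with both vectors, as it was with upper-quartile factors, library totals and DESeq2, and the difference between the vectors was not called.

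**Figure D3:**
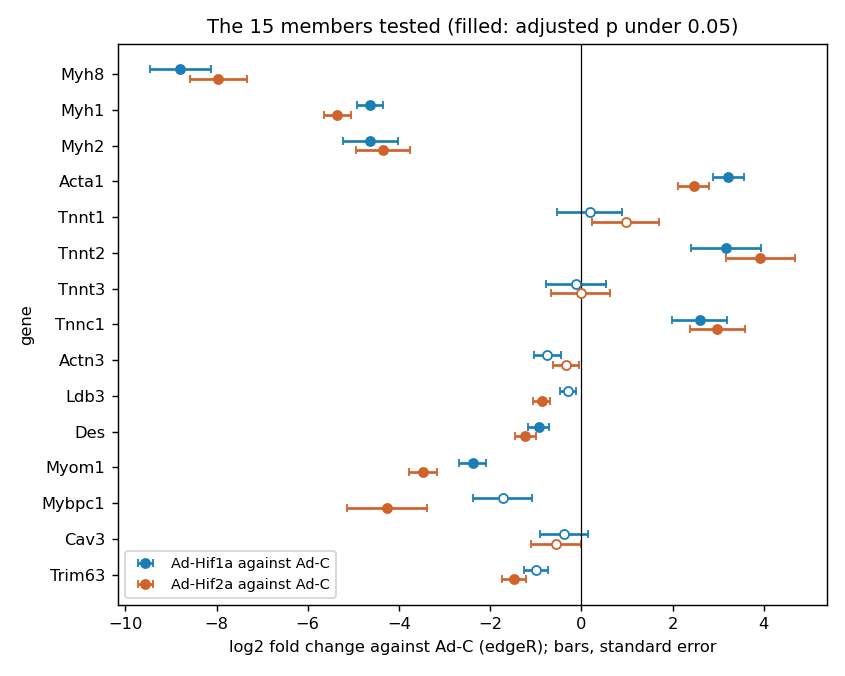
Log2 fold change against Ad-C of the 15 genes tested in edgeR, with bars of 1 standard error, for Ad-Hif1a and Ad-Hif2a; filled points have an adjusted p under 0.05 over all genes tested, as a description. The heavy chains Myh8, Myh1 and Myh2 lie between -8.79 and -4.34, Acta1, Tnnt2 and Tnnc1 between 2.47 and 3.93, and the remaining genes between -4.26 and 0.97.

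The myogenic regulators were at or near 0 in all groups. Myod1 and Myf5, which commit cells to the lineage, had no count in any of the 9 libraries. Pax7, the satellite cell factor, had a single count, in Ad-Hif1a replicate 3. Myf6 had 2 counts in Ad-Hif1a replicate 3, 1 in Ad-Hif2a replicate 2 and none elsewhere. Myog, which drives terminal differentiation, had 2, 0 and 0 counts in Ad-C, 3, 1 and 4 in Ad-Hif1a and 1, 5 and 2 in Ad-Hif2a. The level of Myh1 in Ad-C was therefore measured in libraries that held next to no transcripts of these factors.

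By isoform class, 24 of the members could be placed. The 12 fast genes summed to 67.9 ± 4.88 CPM in Ad-C, 7.82 ± 1.43 in Ad-Hif1a and 8.31 ± 2.60 in Ad-Hif2a, and the 4 fetal or perinatal genes to 12.4 ± 3.27, 2.36 ± 0.512 and 3.34 ± 2.02. The 8 slow genes summed to 3.23 ± 0.614, 5.07 ± 1.76 and 8.27 ± 6.60, where the Ad-Hif2a libraries held 5.60, 3.43 and 15.8 CPM. Without the libraries that stood apart the slow sum was 4.10 in Ad-Hif1a and 4.51 in Ad-Hif2a. In Ad-C the fast sum was mostly Myh1 and the fetal sum mostly Myh8. The largest fast member in the vector groups was Actn3, at 3.43 CPM in Ad-Hif1a and 4.68 in Ad-Hif2a, above Myh1 at 2.39 and 1.47. Tnnt2 made up most of the fetal sum in both vector groups. Classes therefore moved with single members, and within the fetal class Myh8 was lower and Tnnt2 higher.

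Per kb of coding length, which allows levels of different genes to be set side by side, Myh1 led in Ad-C with a level of 9.90 CPM per kb, followed by Cav3 at 7.88, Trim63 at 3.45, Des at 3.19, Ldb3 at 2.88, Myom1 at 2.31, Actn3 at 2.16 and Myh8 at 2.02. In Ad-Hif1a the leading levels were Cav3 at 5.99, Tnnc1 at 5.94 and Acta1 at 5.92 CPM per kb. In Ad-Hif2a they were Tnnc1 at 9.64, Cav3 at 5.56, Acta1 at 3.55 and Tnnt2 at 3.39. Without replicate 3, which stood apart, these Ad-Hif2a levels were 4.89, 3.19, 3.29 and 2.11. The first 3 levels in Ad-Hif1a and all 4 in Ad-Hif2a, over 3 libraries each, differed by less than the larger of their SDs between libraries. The order depended on the length used. Per kb of transcript, which counts the untranslated ends as well, Myh1 still led in Ad-C with 9.71, before Cav3 at 3.08, Myom1 at 2.05, Actn3 at 2.02, Trim63 at 1.95, Myh8 at 1.90, Des at 1.48 and Ldb3 at 1.22. On that scale Acta1 at 4.63 and Tnnc1 at 3.98 were above Cav3 at 2.34 in Ad-Hif1a, and Cav3 at 2.18 came after Tnnc1, Tnnt2 and Acta1 in Ad-Hif2a. Tnnc2, Ckm and Ttn were near 0 in every group beside these levels.

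Ad-Hif2a was also set against Ad-Hif1a. The list was proposed for levels across all 3 groups, and Myh8, Myh2 and Mybpc1 had few counts outside Ad-C, so the members' counts in this contrast are a description as well. No member passed an adjusted p of 0.05 in edgeR, and no gene did among all tested (0%). At an unadjusted p under 0.05 there were 5 of the 15 members (Myh1, Acta1, Ldb3, Myom1 and Mybpc1), all lower in Ad-Hif2a, where 338 of all genes (2.35%) were under it. DESeq2 called 19 genes and none of the members. The log2 difference was -1.09 (SE 0.32) for Myom1, -0.57 (SE 0.19) for Ldb3 and -0.76 (SE 0.30) for Acta1. The interval of each difference is wide at 3 libraries a group, and a missed threshold does not show that the vectors acted alike.

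Outside the 43 members, other skeletal muscle genes were read from 4 lists with 102 genes in all. The lists were chosen with earlier results of these data known, so their calls are a description as well, without p-values. Of the sarcomere and Z-disc list, 12 of 36 genes were tested, with 2 lower in Ad-Hif1a and 1 in Ad-Hif2a. Of the excitation and neuromuscular junction list, 11 of 26 were tested and none was called, and of the metabolism list, 8 of 15 and none. Of the regulators, satellite cell and fusion list, 14 of 25 were tested, with 1 lower and 2 higher in Ad-Hif1a and 3 lower and 2 higher in Ad-Hif2a. Among all genes tested, 5.22% were called lower and 6.04% higher in Ad-Hif1a, and 7.72% and 7.87% in Ad-Hif2a. In the order given, 27 of 36, 18 of 26, 8 of 15 and 13 of 25 genes of these lists were under 1 CPM in Ad-C.

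The most abundant genes of these lists are ones that other tissues share. Hspb6 and Hspb7, small heat shock proteins, stood at 30.7 ± 4.26 and 29.3 ± 3.02 CPM in Ad-C and were not called, with means of 36.6 and 39.6 in Ad-Hif1a and 37.5 and 34.3 in Ad-Hif2a. Fhl1, a LIM protein of muscle and other tissues, fell from 30.0 ± 1.86 CPM to 10.3 ± 2.30 in Ad-Hif1a and 9.74 ± 2.41 in Ad-Hif2a. The log2 difference was -1.56 (SE 0.20) in Ad-Hif1a cells and -1.64 (SE 0.20) in Ad-Hif2a cells, both called. Jph2 (94.7 ± 7.09 CPM), Tmem38a (6.57 ± 1.07) and Cacnb1 (5.03 ± 0.777) led the excitation list in Ad-C and did not pass, with log2 differences between -0.04 and 0.65.

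Leading genes of the other lists did not pass the test. Where their libraries lay apart from control, the share of all genes that did so is not given here, so this is a description only. Dag1, the gene of dystroglycan, went from 307 ± 27.3 CPM to 163 ± 68.4 in Ad-Hif1a and 145 ± 74.7 in Ad-Hif2a, at log2 differences of -0.94 (SE 0.45) and -1.10 (SE 0.45). Mef2a stood at 153 ± 6.22, 83.3 ± 26.0 and 78.3 ± 25.9 CPM, and Fbxo32, the atrogin-1 ubiquitin ligase, at 92.1 ± 2.48, 70.4 ± 9.45 and 63.3 ± 11.6. All 3 were under every control library in all 6 vector libraries. The glycolytic enzyme Aldoa stood at 390 ± 10.3, 605 ± 153 and 624 ± 162 CPM, and glycogen synthase Gys1 at 37.3 ± 1.04, 60.0 ± 3.30 and 52.9 ± 12.1. Pfkm, at 36.9 ± 1.39 CPM in Ad-C, had log2 differences of 0.32 (SE 0.20) and 0.29 (SE 0.20), and overlapped control with Ad-Hif1a. Aldoa and Gys1 were above every control library in all 6.

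The remaining calls in these lists are named after their values were seen. Mef2c, a partner of the myogenic factors that osteoblast-lineage cells and macrophages also make, fell from 25.7 ± 0.580 CPM to 6.61 ± 1.89 and 6.07 ± 1.43. The log2 difference was -1.99 (SE 0.24) in Ad-Hif1a cells and -2.09 (SE 0.24) in Ad-Hif2a cells, both called. Tmod1, a cap of thin filaments, was called in Ad-Hif1a cells, at -1.67 (SE 0.35), and missed the threshold in Ad-Hif2a cells, at -1.19 (SE 0.34). In Ad-Hif2a cells dystrophin (Dmd) was called lower, at -1.61 (SE 0.33), and so was Fgfr4, at -4.37 (SE 0.81). In Ad-Hif1a cells both also lay under every control library but were not called, at -1.27 (SE 0.33) and -2.29 (SE 0.63). Ncam1, a cell adhesion molecule, was called higher with both vectors, by 0.74 (SE 0.13) in Ad-Hif1a cells and 0.82 (SE 0.13) in Ad-Hif2a cells. Itga7, a laminin receptor, was called higher as well, by 1.06 (SE 0.24) and 1.46 (SE 0.24). No difference between the vectors passed for any of them.

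Markers of other cells moved in the same libraries. The 13 macrophage markers summed to 3650 to 3891 CPM in Ad-C, 1504 to 1672 in Ad-Hif1a and 1547 to 1838 in Ad-Hif2a. Of them 9 and 8 were called lower, where 5.22% and 7.72% of all genes were. Lyz2 made up most of this sum, and without it the list summed to 1278 to 1338, 441 to 469 and 439 to 507 CPM. The markers did not move alike. Mrc1 went from a mean of 205 CPM to 15.7 and 9.71, while Adgre1 overlapped control, at 117, 101 and 116. Of the 5 tendon markers, Fmod was called lower in both, from a mean of 2847 CPM in Ad-C to 1239 and 1123, and carried the sum of the list. Scx was called higher in both, at 21.9, 49.5 and 49.8 CPM, and Tnmd, Mkx and Thbs4 were not called. Without Fmod the list summed to 316 to 347 CPM in Ad-C, 288 to 326 in Ad-Hif1a and 285 to 320 in Ad-Hif2a. Osteoblast markers, which define the labelled cells, took 67441 to 72999 CPM in Ad-C, 59545 to 61798 in Ad-Hif1a and 52103 to 60890 in Ad-Hif2a, with 4 and 6 of 12 called lower. Smooth muscle markers stood at 3269 to 3530, 3321 to 4983 and 3215 to 4918 CPM, with Actg2 called higher in both and Myh11 lower in Ad-Hif2a.

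Of the 8 cardiac markers none had enough counts to be tested. They summed to 0.481 to 0.560 CPM in Ad-C, 0.310 to 0.872 in Ad-Hif1a and 0.685 to 1.18 in Ad-Hif2a. Tnni3, with 4 to 14 counts in every library, made up most of the sum except in Ad-Hif2a replicates 1 and 2. Nppa and Nppb had no counts. Endothelial markers summed to 10.1 to 11.4, 15.3 to 15.7 and 12.3 to 16.5 CPM. Erg, called higher in both, carried this rise. Without Erg the list summed to 5.43 to 5.66 CPM in Ad-C, 2.67 to 2.77 in Ad-Hif1a and 2.84 to 3.83 in Ad-Hif2a. In Ad-Hif2a Kdr was called lower and Pecam1 higher. Neural and glial markers summed to 16.0 to 17.2, 18.0 to 38.4 and 18.4 to 53.3 CPM. Adipocyte markers summed to 124 to 151, 70.6 to 78.4 and 71.7 to 98.5 CPM. The adipocyte sum was mostly Lpl, called lower in both as was Pparg, while Fabp4 was called higher in Ad-Hif2a and Adipoq, Plin1 and Cidec were at or near 0. The part of these other cells in the differences of the muscle genes was not tested. In RNA from whole cultures, fewer cells of a type and less RNA per cell cannot be told apart.

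**Figure D4:**
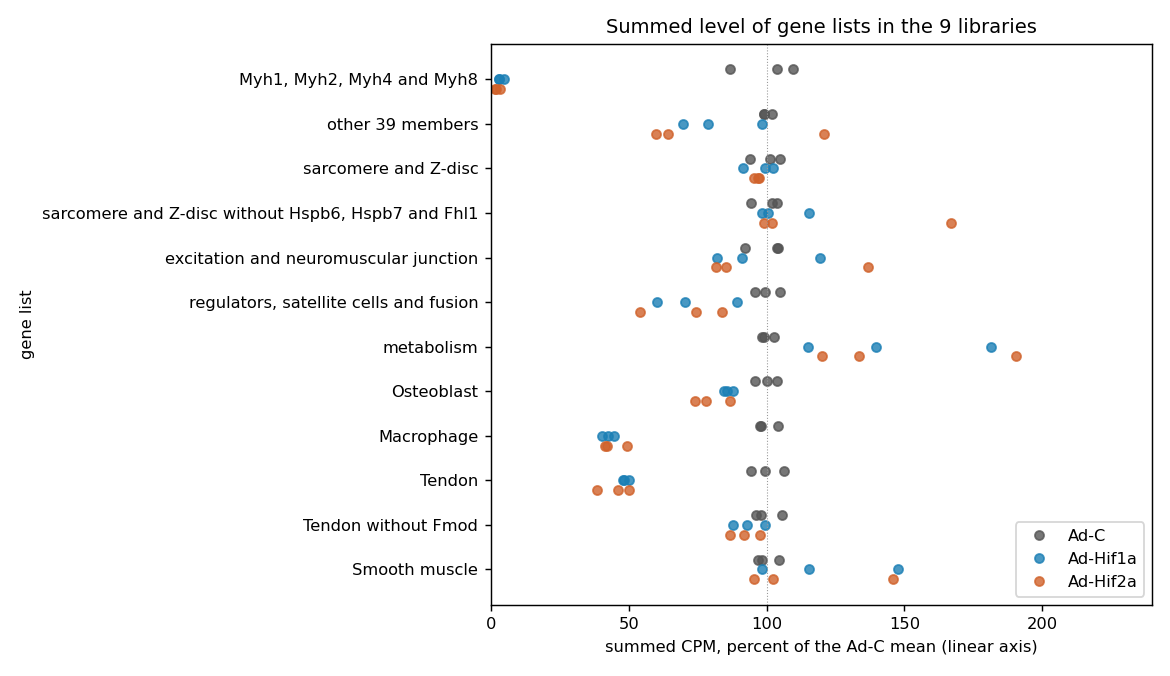
Summed CPM of gene lists in each library as a percent of the Ad-C mean of the list (linear axis), with 1 point per library coloured by virus. Myh1, Myh2, Myh4 and Myh8 together are at 1.63 to 4.58% of control in the vector libraries, and macrophage markers, a sum that is mostly Lyz2, at 40.3 to 49.2%. Tendon markers are at 38.4 to 50.0% with Fmod and at 86.8 to 99.5% without it, and the sarcomere and Z-disc list is at 91.5 to 102% with Hspb6, Hspb7 and Fhl1, which make up most of its sum, and at 98.4 to 167% without them, where the highest value is Ad-Hif2a replicate 3.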

How the data were processed

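Each virus gave 3 of the 9 libraries, which were prepared from total RNA with the CORALL RNA-seq V2 kit, and groups were taken from the labels. The authors deposited raw counts, 1 whole number per symbol and library, without normalization. The submitters' processing notes name bcl2fastq 2.20.0.422, fastp, STAR, Salmon and GRCm39, and their settings are not given in the sources used here. Of 40213 symbols, 15482 had no count in any library. Totals were 14372589 to 18623403 counts, so a single count was worth from 0.0534 CPM in Ad-C replicate 3 to 0.0728 CPM in Ad-Hif2a replicate 3.

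The members and lists were chosen with earlier results of these data known. All fits were run in R 4.3.3, with edgeR 4.0.16 beside limma 3.58.1. The 14413 genes passing filterByExpr were scaled by TMM (factors 0.956 to 1.03) and fitted by robust quasi-likelihood on all 9 libraries with the replicate number as a term, since the study's methods name a paired test. Benjamini-Hochberg adjustment ran over all genes tested (threshold 0.05), and "called" means past it. The labels do not tie libraries to separate cultures, and p-values measure the spread between these libraries. The fit was also run on simulated data, and the outcome is not given here.

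All members are named. Values per library are given by rule for members with a mean of 5 CPM or more in Ad-C and for the 5 regulators, and 3 genes were named from each list of other muscle genes by their level in Ad-C. Coding lengths and shared stretches are from GENCODE vM21, and promoters and gene order from RefSeq (GRCm38.p6). Pooled ratios have exact 95% intervals, which cover counting error only and not the spread between libraries, and a floor of 3 counts over the group. Alternatives were a fit without the replicate term, DESeq2 1.42.0, RLE, upper-quartile and no scaling factors, no low-count filter, at least 10 counts in every library, only the 6 libraries compared, each library left out in turn, other lengths, the sum without Myh1, and folds of mean CPM per group with 1 added. A fit without the 2 vector libraries that stood apart (replicate 1 of Ad-Hif1a and replicate 3 of Ad-Hif2a), sums without single leading genes, and levels per kb of transcript were chosen after seeing the data. Replicates of a group differed by more than sampling noise.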

Additional observations from a re-analysis of the deposited data

How the results depend on the processing

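Direction held for every member called in a comparison with Ad-C, under every alternative that tested it. These fits reuse all or part of the libraries in which the members were called, so a kept direction is a description and no separate support. The members called were 8 with Ad-Hif1a and 11 with Ad-Hif2a, and 5 and 6 when at least 10 counts were asked of every library, where Myh8, Myh2, Tnnt2, Tnnc1 and Mybpc1 were no longer tested. With 1 library left out they were 5 to 11 and 5 to 12. Other muscle genes called were 5 and 6, and 10 and 10 without the replicate block, 12 and 12 with DESeq2, 16 with Ad-Hif1a when only the 6 libraries compared were fitted, 15 and 15 without the 2 libraries that stood apart, and 2 to 18 and 2 to 14 with 1 library left out. The median log2 fold change of the members tested was -0.93 to -0.44 with Ad-Hif1a, -1.34 to -0.86 with Ad-Hif2a and -0.51 to 0.15 between the vectors with 1 library left out, and -0.72 with Ad-Hif2a from group means of CPM plus 1. The summed level of the members in Ad-C was 57.5 CPM without Myh1. All genes called were 1624 with Ad-Hif1a and 2247 with Ad-Hif2a, 2379 and 3452 without the replicate block, and 2470 and 3526 with DESeq2. Same-numbered libraries of Ad-C and Ad-Hif1a had correlations of deviations of -0.0152 to 0.0758, those of Ad-C and Ad-Hif2a of -0.101 to 0.0247 and those of the vectors of -0.575 to 0.0980. The highest between the vectors were of unlike numbers. They were 0.610 for Ad-Hif1a replicate 1 with Ad-Hif2a replicate 3 and 0.541 for Ad-Hif1a replicate 3 with Ad-Hif2a replicate 2. The numbers used as a block were thus not shown to pair libraries. With 28 of 43 members under the filter, depth limits what can be said of most of them, and their absence from a library was not detectable beyond the floor of 3 counts.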
